A study of Mus musculus with 6 samples.

Results

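Rab GTPases are the largest branch of the Ras superfamily of small GTPases, and 59 protein-coding mouse genes carry a Rab symbol followed by a number (Rab1a to Rab44). These genes were picked by symbol alone, from the 56305 Ensembl genes whose normalized read counts were deposited, with no threshold on their values. Livers of 3 WT and 3 Vps15LKO male mice, 5-week-old animals with free access to food taken at ZT6, were each sequenced as 1 poly(A) RNA library. Vps15LKO mice are AlbCre+;Vps15f/f: Cre under the albumin promoter deletes Vps15 in hepatocytes from early life, so the deletion is chronic, while liver cells that do not express albumin keep the gene. The labels describe the control livers only as WT, and nothing states whether these carry floxed alleles.

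A Rab protein cycles between a GTP-bound form, which sits on the membrane of 1 organelle and recruits effectors there, and a GDP-bound form that GDI proteins hold in the cytosol. Exchange factors (GEFs) load GTP, GTPase-activating proteins (GAPs) end the active state, and a prenyl group added at the C terminus anchors the protein in the membrane. Class 3 PI3K, the complex of the lipid kinase Vps34 with Vps15, is itself a Rab effector. Rab5 recruits it to early endosomes, where the lipid PI3P that it makes brings in further Rab5 effectors, and it also acts where Rab7 takes over from Rab5 on late endosomes and on autophagosomes.

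Of the 59 Rab genes, 47 reached 20 normalized counts in 3 or more of the 6 livers and were compared between genotypes with limma on log2(normalized count + 1), with adjustment over all 15430 genes that passed this filter. Calls needed both an adjusted p below 0.05 and a difference of 1.2-fold or more. In Vps15LKO liver, 13 Rab genes were called higher and 11 lower, and 23 were not called. The 24 called genes are 51.1% of the Rab genes tested, below the 66.5% called among all genes tested. By direction, 27.7% of the Rab genes were higher and 23.4% lower, against 33.5% and 33.0% of all genes. Of the 13 higher genes, 5 (Rab3b, Rab7b, Rab26, Rab27b and Rab39) had fewer than 3 WT livers at 20 normalized counts and passed the filter through the Vps15LKO livers, so they could hardly be called anything but higher. The other 42 tested genes held 8 higher and 11 lower. Of all 13574 genes with 3 WT livers at 20 normalized counts, 3623 were higher and 5098 lower. The median log2 fold change (Vps15LKO minus WT) was −0.06 for the Rab genes and −0.02 for all genes tested. In 28 Rab genes (59.6%) the 3 WT values and the 3 Vps15LKO values did not overlap, which was so for 73.2% of all genes tested.

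The scaling between libraries sets much of the direction. The libraries held 16137093 to 18110223 reads on genes, yet the deposited scaling made 1 read of a WT library worth 1.25 to 1.35 normalized counts and 1 read of a Vps15LKO library 0.707 to 0.810. Giving all libraries an equal total of reads (total-read scaling) moved the all-gene median of the log2 fold change up by 0.72. Under it, 38 Rab genes were called higher and 2 lower, when 66.8% of all genes were higher and 11.1% lower. All 13 higher Rab genes stayed higher, while of the 11 lower ones 2 stayed lower, 6 lost their call and 3 became higher. Over the deposited scaling and the 4 others tried, 9 Rab genes were called higher each time and 2 lower each time (Rab4a and Rab17). The 9 were Rab3b, Rab3d, Rab7b, Rab8b, Rab12, Rab27b, Rab31, Rab34 and Rab35. Rab3b, Rab7b and Rab27b had passed the filter through the Vps15LKO livers, and the same filtered genes were used in every scaling. Of all genes, 26.8% were higher and 10.8% lower each time, and these shares include such genes too. Of the 23 genes not called on the deposited scaling, 22 were called higher under total-read scaling, all but Rab36, so "not called" below is a statement on the deposited scaling. The family sum turns with the scaling too. As reads in each 1000000 on genes, which is total-read scaling, the 59 Rab genes together took 1903, 1906 and 1991 in WT livers and 2785, 2668 and 2956 in Vps15LKO livers. On the deposited scaling their sum was 44893, 43116 and 43320 normalized counts in WT and lower in each Vps15LKO liver, at 38150, 39109 and 37730.

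**Figure D1:**
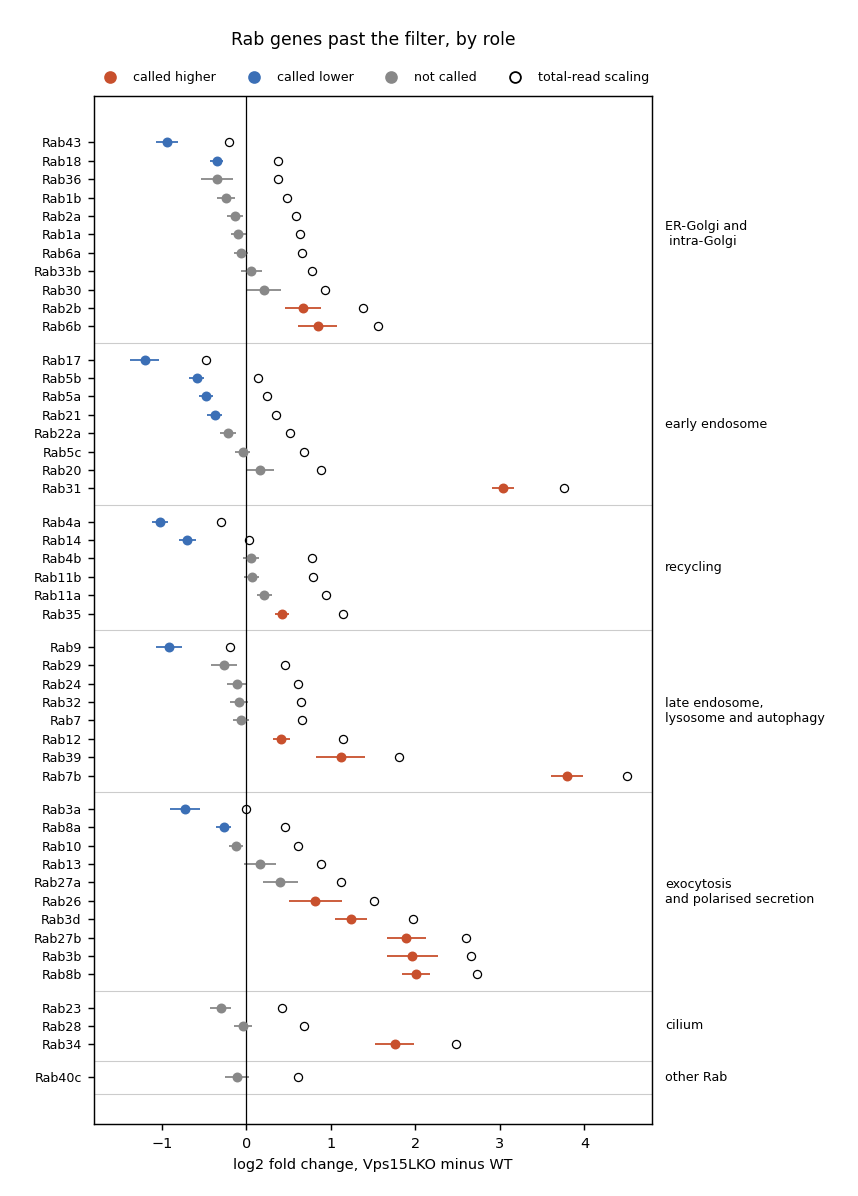
Log2 fold change (Vps15LKO minus WT) of the 47 Rab genes past the filter, grouped by role; filled points with bars give the limma estimate and its standard error on the deposited scaling (3 livers each), and open circles the estimate under total-read scaling. Rab7b, Rab31 and Rab8b lie farthest to the right on both scales, and only Rab17, Rab4a, Rab43, Rab9 and Rab3a have both points at or below 0.

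Cell markers moved with genotype on a wide scale. The summed level of 11 hepatocyte markers was 2929200 to 3349700 normalized counts in WT livers and 818480 to 1248400 in livers of Vps15LKO mice, with 10 called lower and 0 higher, and Alb and Apoa1 were the most abundant of them in both genotypes. The sums of 14 macrophage markers (10735 to 12485 in WT, 39165 to 42816 in Vps15LKO), 12 stellate and fibroblast markers (8009 to 8531 and 34002 to 39779) and 10 cholangiocyte markers (1284 to 1456 and 13198 to 24871) were higher in every Vps15LKO liver, and 12, 12 and 10 of their genes were called higher. The sums of 11 endothelial markers overlapped (10475 to 11573 and 10181 to 11814), but 6 of these genes were called higher and 4 lower. Under total-read scaling 8 of the 11 endothelial markers were higher and 0 lower. The sums of 11 proliferation genes were 691 to 992 in WT and 4289 to 4709 in Vps15LKO livers, with all 11 called higher, and those of 11 lymphocyte markers 252 to 389.6 and 1088.5 to 1207, with 7 of the 9 tested called higher. Of 9 neutrophil and mast cell markers (189.6 to 252 and 357 to 411), 3 of the 4 tested were called higher, Fcer1a had no read in any library, and Ly6g and Mpo had none in WT. In whole liver, fewer cells of a type and less RNA per cell cannot be told apart, and the part of these cells in the Rab values below was not tested.

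All tested genes were split by mean level into 5 classes of equal size. Among the 13 Rab genes of the top class, 0 were higher and 5 lower, where 19.6% and 57.7% of all genes of that class were. This turned with the scaling: 6 of the 13 were higher and 1 lower with quantile normalization (33.8% and 38.8% of all genes of the class), and 10 higher and 0 lower with total reads (50% and 27.9%). Among the 7 in the lowest class, 6 were higher and 0 lower, beside 47.7% and 15.6% of all genes there, but 4 of the 6 (and 1232 of the 1471 higher genes of that class) had passed the filter through the Vps15LKO livers. From the second lowest class upward, the classes between held 2 higher and 1 lower of 7 (42.3% and 21.2% of all genes), 1 higher and 1 lower of 7 (32.0% each), and 4 higher and 4 lower of 13 (25.8% and 38.8%). Per length, Rab7, the Rab of late endosomes and lysosomes, was the most abundant member in both genotypes, with a mean of 1965 normalized counts per kb of merged exons in WT and 1878 in Vps15LKO liver. Rab1b, which acts between the ER and the Golgi, followed with 1425 and 1204, and Rab5c of early endosomes with 1136 and 1099 counts per kb. Rab43 was the fourth in WT (972 counts per kb) and the seventh in Vps15LKO liver (512). Of the tested genes, Rab31 moved farthest up this order, from rank 35 in WT (29.4 counts per kb) to rank 15 in Vps15LKO liver (244 counts per kb).

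**Figure D2:**
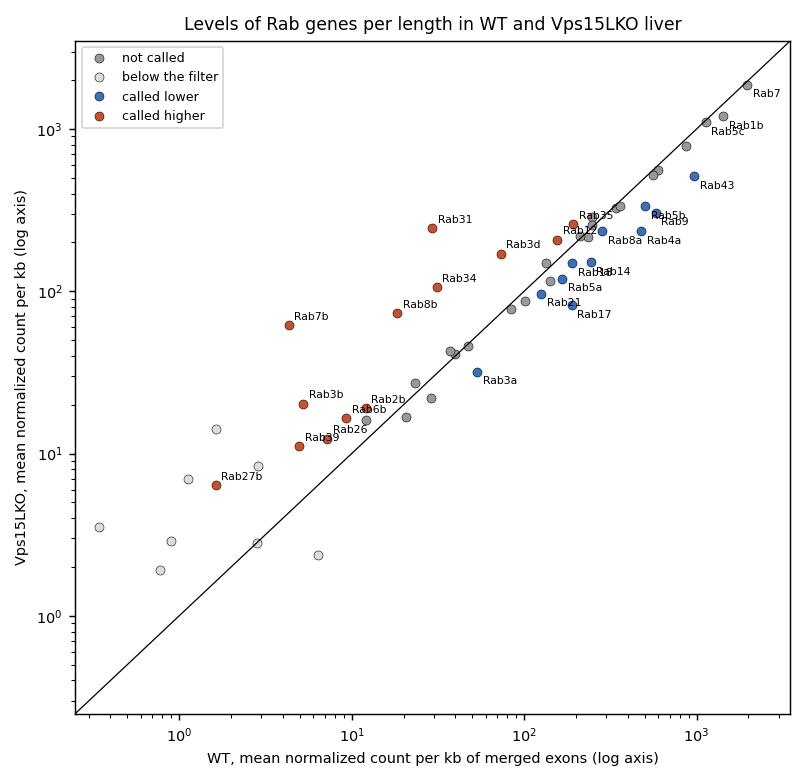
Mean normalized count per kb of merged exons in WT (x axis) and Vps15LKO liver (y axis), both on log axes, for the Rab genes with reads in both genotypes; the line marks equal levels, and each point is the mean of 3 livers. The most abundant genes lie on or below the line, while Rab31, Rab7b, Rab34, Rab8b and Rab3d stand above it.

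The class 3 PI3K genes themselves were slightly lower on the deposited scaling. Pik3r4, which encodes Vps15, measured 508, 573 and 459.7 normalized counts in WT and 341, 362 and 355 in Vps15LKO livers, a log2 fold change of −0.54 (adjusted p = 0.0021). The count of Pik3r4 does not separate the deleted exons from the rest. Pik3c3, which encodes Vps34, had 388, 387 and 363 normalized counts in WT and 284, 311 and 274 in Vps15LKO livers, a log2 fold change of −0.39 (adjusted p = 0.0074). Under total-read scaling both values were above 0, with Pik3r4 not called (0.19) and Pik3c3 called higher (0.33).

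The 3 Rab5 paralogues, which control fusion of early endosomes and recruit class 3 PI3K, did not move alike. Rab5a (chromosome 17, 53479234 to 53507680 in GRCm38) had 887, 877 and 875 normalized counts in WT livers and 661, 624 and 610.4 in Vps15LKO livers. All Vps15LKO values lay below all WT values, with a log2 fold change of −0.48 (standard error, SE, of 0.08, adjusted p = 0.00087). Rab5b (chromosome 10, 128677175 to 128696264) fell from 2188, 2128 and 2026 to 1375, 1523 and 1324 normalized counts, a log2 fold change of −0.59 (SE 0.09, adjusted p = 0.0005). Rab5c (chromosome 11, 100715009 to 100738215) had 2649, 2382 and 2443 normalized counts in WT and 2376, 2429 and 2427 in Vps15LKO livers, so the genotypes overlapped (log2 fold change −0.05, SE 0.09, adjusted p = 0.66). Under total-read scaling Rab5a and Rab5b were not called, with values above 0 (0.25 and 0.14), and Rab5c was called higher (0.68). With quantile normalization Rab5b was not called (−0.22) and Rab5c was called higher (0.45).

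A share within a library does not change when the whole library is scaled by 1 factor, though it does with quantile normalization, and the shares below are not from that. Of the Rab5 counts per kb, Rab5c held 63.7%, 61.7% and 63.2% in WT livers and 70.5%, 69.7% and 71.96% in Vps15LKO livers. Rab5b held 27.9% ± 0.80 in WT and 21.6% ± 1.18 in Vps15LKO livers, and Rab5a 9.25% ± 0.33 and 7.72% ± 0.39 (SD, n = 3 each). None of the 3 shares overlapped between genotypes, and each gave p = 0.1 in a two-sided exact permutation test, the smallest p that 3 livers against 3 allow. Over the 36 shares of 16 subfamilies tested, the smallest adjusted p was 0.157, so no share can pass a threshold of 0.05 in this design.

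Of the 8 early endosome Rab genes, Rab5 included, 4 were called lower, 1 higher and 3 were not called, beside 33.0% of all genes lower, and under total-read scaling 1 was lower and 5 higher. Rab21, which acts in integrin endocytosis, had 595, 647 and 661 normalized counts in WT and 472, 508 and 482 in Vps15LKO livers. Its log2 fold change was −0.38 (adjusted p = 0.0051), and it lost its call under upper-quartile scaling (−0.26) and was called higher under total-read scaling (0.35). Rab17, an epithelial Rab of transcytosis and polarised sorting, is on chromosome 1 (90958133 to 90969661) and had 406, 422 and 303 normalized counts in WT and 161, 193 and 135 in Vps15LKO livers. The highest Vps15LKO liver was below the lowest WT liver, and the log2 fold change of −1.20 (SE 0.17, adjusted p = 0.00033) was the largest fall among the Rab genes tested. It stayed between −1.35 and −1.08 with each liver left out in turn, and was −0.48 under total-read scaling. Rab22a (log2 fold change −0.22) and Rab20 (0.16), which act on early endosomes and phagosomes, were not called, but Rab22a was called lower without WT liver 3 (−0.27) and Rab20 was −0.02 without it.

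Promoters of the Rab genes were searched for the E-box bound by Bmal1–Clock, CACGTG, whose reverse complement is the same sequence. RefSeq promoters (GRCm38.p6, from 250 bases before to 50 after a start) were found for 48 of the 59 genes, 60 promoters in all. The E-box occurred in promoters of 6 genes, 10% of the Rab promoters beside 7.15% of all 32851 promoters. The longer palindrome with GT before and AC after the E-box, a form of the CLEAR element bound by TFEB, occurred in promoters of 3 genes, Rab5a, Rab21 and Rab24, beside 0.326% of all promoters. By call, the E-box was found in 2 of the 9 lower genes with a promoter, 0 of the 10 higher genes and 4 of the 20 tested genes that were not called. A match in letters does not show binding, and no binding data were analysed here. The upstream bases of Rab5a and Rab21 are shown because these were the called genes with an E-box before the start. They cover chr17:53478984-53479233 on the plus strand for Rab5a and chr10:115315592-115315841 on the minus strand for Rab21, 250 bases each, 5′ to 3′, with each E-box in capitals.
Rab5a: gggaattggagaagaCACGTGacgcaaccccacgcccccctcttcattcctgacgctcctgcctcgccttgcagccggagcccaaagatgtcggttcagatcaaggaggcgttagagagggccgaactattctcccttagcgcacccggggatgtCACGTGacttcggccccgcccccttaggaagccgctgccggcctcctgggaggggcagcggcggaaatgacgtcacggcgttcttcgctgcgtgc
Rab21: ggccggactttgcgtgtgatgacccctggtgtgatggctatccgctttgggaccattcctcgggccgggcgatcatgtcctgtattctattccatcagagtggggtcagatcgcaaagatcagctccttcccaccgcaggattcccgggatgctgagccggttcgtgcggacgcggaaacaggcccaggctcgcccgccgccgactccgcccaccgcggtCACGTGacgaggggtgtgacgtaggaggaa
Rab5a has 2 E-boxes, starting 235 and 95 bases before the start, and the second lies within the longer palindrome. The E-box of Rab21 starts 30 bases before the start, also within the longer palindrome.

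Rab31 was the early endosome gene that rose. It acts in traffic between the trans-Golgi network and endosomes and is a close paralogue of Rab22a. Rab31 (chromosome 17, 65651729 to 65772752) had 113, 105 and 119 normalized counts in WT livers and 923, 795 and 1077 in Vps15LKO livers. The lowest Vps15LKO liver was several times above the highest WT liver, and the mean rose 8.31-fold (log2 fold change 3.03, SE 0.13, adjusted p = 7.5e-07). Of the counts per kb of Rab22a and Rab31 together, Rab31 held 22.6% ± 2.30 in WT and 73.5% ± 2.99 in Vps15LKO livers (mean ± SD, n = 3 each, exact permutation p = 0.1), so the larger partner in WT became the smaller one.

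Among Rab genes of late endosomes, lysosomes and autophagy, 3 of the 8 tested were called higher, 1 lower and 4 were not called, beside 33.5% and 33.0% of all genes. Of the 3, Rab7b and Rab39 had passed the filter through the Vps15LKO livers, and the other 6 genes held 1 higher and 1 lower. All genes with 3 WT livers at 20 normalized counts held 3623 higher and 5098 lower of 13574. Rab7 (chromosome 6, 87999106 to 88045270), which drives fusion of late endosomes and autophagosomes with lysosomes, had 5272, 4852 and 5259.9 normalized counts in WT and 5060.0, 4745 and 4896 in Vps15LKO livers. The genotypes overlapped, with a log2 fold change of −0.06 (SE 0.10, adjusted p = 0.58), and Rab7 was called higher under total-read scaling and with quantile normalization (0.66 in each). Rab7b is a distinct gene that acts in transport from endosomes to the Golgi and is best known from myeloid cells. Rab7b (chromosome 1, 131688695 to 131715439) had 15.9, 23.7 and 20.2 normalized counts in WT livers and 286, 258 and 317 in Vps15LKO livers. This was the largest rise among the Rab genes tested, with a log2 fold change of 3.79 (SE 0.19, adjusted p = 1.4e-06), 3.65 to 3.92 with each liver left out and 3.34 to 4.5 over the scalings. Even so, Rab7b held 3.20% ± 0.29 of the counts per kb of Rab7 and Rab7b in Vps15LKO livers, after 0.22% ± 0.05 in WT (SD, n = 3 each).

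Rab9, which returns mannose 6-phosphate receptors from late endosomes to the Golgi, went the other way. Rab9 (chromosome X, 166457253 to 166479867) had 1199, 1014 and 829 normalized counts in WT and 521, 604 and 474 in Vps15LKO livers. The WT livers were spread over a wide range, but the genotypes did not overlap (log2 fold change −0.92, SE 0.15, adjusted p = 0.00065). Rab9 lost its call only under total-read scaling, where its log2 fold change was −0.19. Rab12, which directs the transferrin receptor to lysosomes, had 491, 457 and 469 normalized counts in WT and 611, 581 and 699 in Vps15LKO livers, a log2 fold change of 0.41 (adjusted p = 0.0059). Rab39 was higher at a low level, with 10.8 to 17.2 normalized counts in WT livers and 26.2 to 38.9 in livers of Vps15LKO mice (log2 fold change 1.11, adjusted p = 0.0085), and was not called with quantile normalization (0.16). Rab24, Rab29 and Rab32, linked to autophagy and lysosome-related organelles, had log2 fold changes of −0.11, −0.27 and −0.08 and were not called, though Rab29 was called lower with quantile normalization (−0.52) and without WT liver 2 (−0.40). Rab24 shares 62.4% of its exons with Prelid1 on the other strand, and Prelid1 had 826% to 1102% as many reads, so the count of Rab24 is uncertain.

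**Figure D3:**
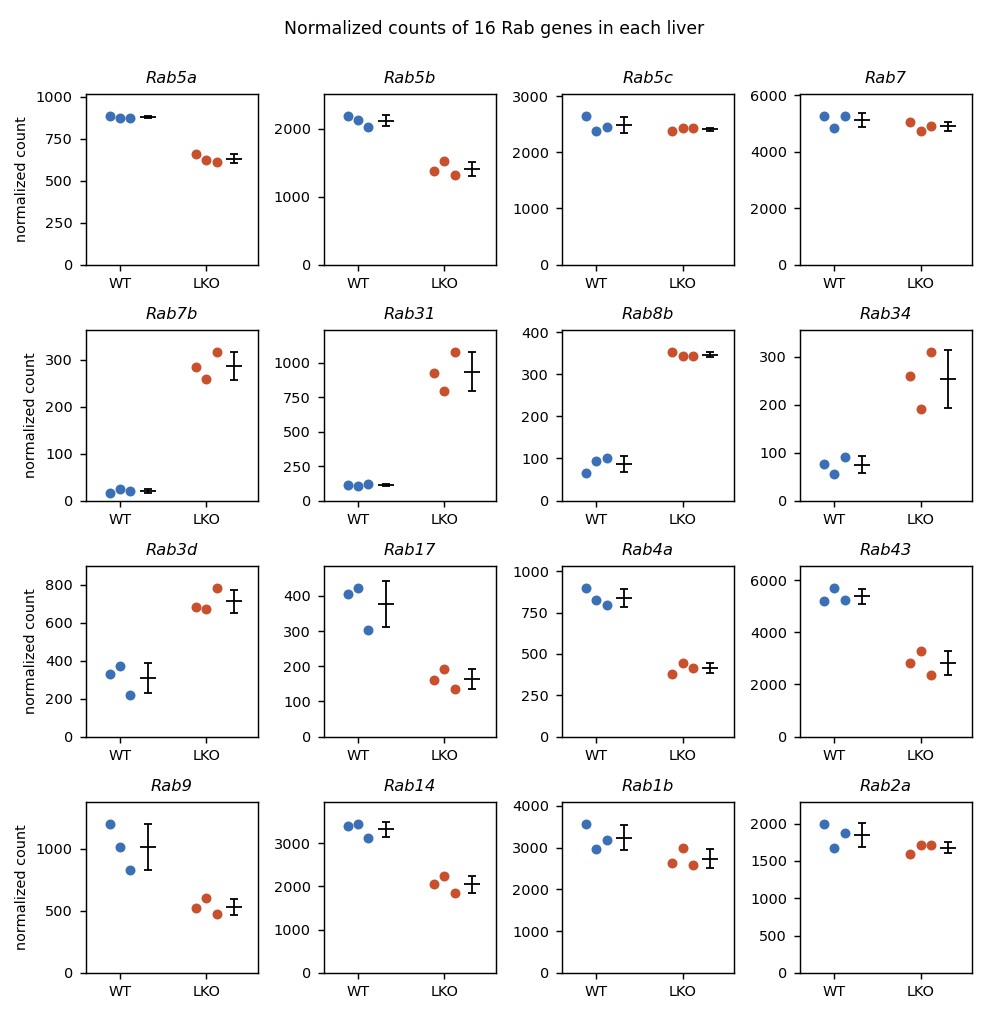
Normalized counts of 16 Rab genes in each liver (points; WT and Vps15LKO, marked LKO), with the mean and SD of 3 livers beside them; every y axis starts at 0. Rab5c, Rab7, Rab1b and Rab2a overlap between genotypes, and the 5 genes from Rab7b to Rab3d are higher in every Vps15LKO liver than in any WT liver.

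Recycling Rab genes return cargo from endosomes to the cell surface, and 1 of the 6 tested was called higher, 2 lower and 3 were not called, beside 33.5% and 33.0% of all genes. Rab4a, the Rab of fast recycling, is on chromosome 8 (123805985 to 123835287) and had 899, 826 and 795 normalized counts in WT and 382, 442 and 416 in Vps15LKO livers. The groups were far apart (log2 fold change −1.02, SE 0.10, adjusted p = 3.4e-05), and Rab4a remained lower under every scaling, at −0.30 with total reads. Its paralogue Rab4b had 401 to 443 normalized counts in WT livers and 405 to 451 in livers of Vps15LKO mice and was not called (log2 fold change 0.05). Rab4a held 69.4% ± 0.42 of the counts per kb of this pair in WT and 51.9% ± 2.82 in Vps15LKO livers (mean ± SD, n = 3 each, exact permutation p = 0.1). Rab4b shares 65.0% of its exons with the read-through gene Gm21983 on the same strand, and Gm21983 had 98.6% to 101% as many reads as Rab4b in each library, so the counts of these genes cannot be told apart.

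Rab14, which moves cargo between the Golgi and endosomes, is on chromosome 2 (35180205 to 35201120) and had 3406, 3445 and 3111 normalized counts in WT livers. The Vps15LKO livers had 2045, 2241 and 1855, with no overlap and a log2 fold change of −0.70 (SE 0.10, adjusted p = 0.00037). Rab14 was not called with quantile normalization (−0.20) or total reads (0.03). Rab35, which acts in recycling at the plasma membrane and in cytokinesis, was higher under every scaling, with 542, 548 and 538 normalized counts in WT and 688, 762 and 734 in Vps15LKO livers (log2 fold change 0.42, adjusted p = 0.0022). Rab11a and Rab11b, the Rabs of the recycling endosome, were not called (log2 fold changes 0.21 and 0.06). Rab11a was called higher under upper-quartile, quantile and total-read scaling (0.34, 0.37 and 0.94) and without WT liver 1 (0.27), and Rab11b with quantile normalization (0.41) and total reads (0.79).

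Of the 10 tested genes of exocytosis and polarised secretion, 5 were called higher, 2 lower and 3 were not called, with 33.5% of all genes higher and 33.0% lower. Of the 5, Rab3b, Rab26 and Rab27b had passed the filter through the Vps15LKO livers. The other 7 genes of the group held 2 higher and 2 lower. All genes with 3 WT livers at 20 normalized counts held 3623 higher and 5098 lower of 13574. Rab8b (chromosome 9, 66843664 to 66919687), which acts in traffic from the Golgi to the plasma membrane, had 66.3, 93.7 and 101 normalized counts in WT and 353, 342 and 344 in Vps15LKO livers. The Vps15LKO livers were tightly grouped, 3.98-fold above the WT mean (log2 fold change 2.0, SE 0.17, adjusted p = 1.6e-05). Rab8a, the main paralogue, had 1334, 1247 and 1415 normalized counts in WT and 1143, 1089.9 and 1074 in Vps15LKO livers. It was called lower by a small amount (log2 fold change −0.27, adjusted p = 0.022), but kept the call in only 8 of 19 alternatives, losing it without WT liver 3 (−0.23) and without each Vps15LKO liver (−0.30, −0.26 and −0.25), and was called higher with total reads (0.45). Rab8b held 6.06% ± 1.21 of the counts per kb of the pair in WT and 23.7% ± 0.33 in Vps15LKO livers (mean ± SD, n = 3 each, exact permutation p = 0.1).

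The Rab3 paralogues, which control release of secretory vesicles and granules, diverged. Rab3d (chromosome 9, 21907491 to 21918192), known from exocrine cells, had 333, 375 and 218 normalized counts in WT and 683, 674 and 784 in Vps15LKO livers, a log2 fold change of 1.24 (SE 0.19, adjusted p = 0.00044). Rab3b rose from 18.6, 11.2 and 25.6 to 69.5, 80.2 and 65.1 normalized counts (log2 fold change 1.96, adjusted p = 0.00045). Rab3a, the main paralogue in neurons, went the other way, with 127, 99.9 and 129 normalized counts in WT and 66.4, 64.0 and 83.5 in Vps15LKO livers (log2 fold change −0.73, adjusted p = 0.0055). Under total-read scaling Rab3a was not called (−0.01). Rab3a held 40.8% ± 8.42 of the Rab3 counts per kb in WT and 14.4% ± 0.98 in Vps15LKO livers, and Rab3d held 55.1% ± 10.4 and 76.4% ± 0.64 (SD, n = 3 each). Neither share overlapped between genotypes, though the WT livers differed widely among themselves.

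Rab27b, which docks secretory vesicles and multivesicular endosomes at the plasma membrane, had 17.2, 18.7 and 16.2 normalized counts in WT and 64.9, 55.9 and 83.5 in Vps15LKO livers (log2 fold change 1.89, adjusted p = 0.00012). Its paralogue Rab27a was not called, at 39.8 to 52.6 normalized counts in WT livers and 51.1 to 73.6 in livers of Vps15LKO mice (log2 fold change 0.40, adjusted p = 0.12). Rab27b held 11.97% ± 1.79 of the counts per kb of this pair in WT and 28.2% ± 1.05 in Vps15LKO livers (mean ± SD, n = 3 each). Rab26, a Rab of secretory granules, lay close to the threshold (log2 fold change 0.81, adjusted p = 0.045) and kept its call in 10 of 18 alternatives, losing it without WT liver 1 (0.87), WT liver 2 (0.51) or any Vps15LKO liver (0.85, 0.82 and 0.77). Rab10 and Rab13, which act in transport to the plasma membrane and at cell junctions, were not called (log2 fold changes −0.12 and 0.16), and Rab10 was called higher with quantile normalization (0.29) and total reads (0.61).

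**Figure D4:**
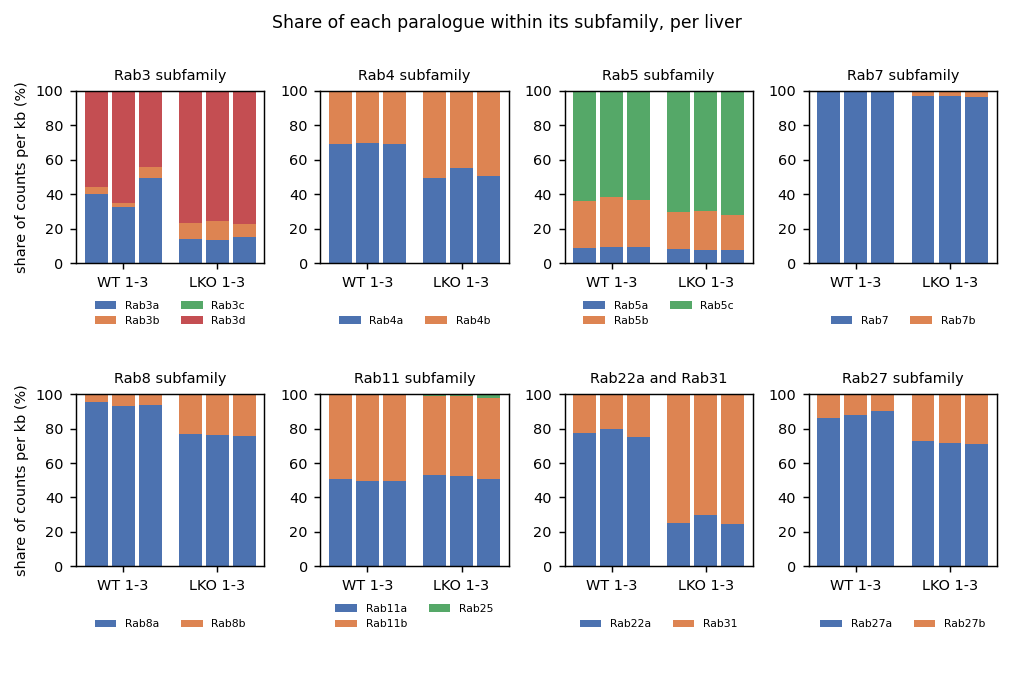
Share of each paralogue in the normalized counts per kb of its subfamily (y axis, percent), 1 bar per liver, for 8 subfamilies; WT livers 1 to 3 are on the left and Vps15LKO livers 1 to 3 (marked LKO) on the right of each panel. Rab31, Rab8b, Rab27b, Rab4b and Rab3d take a larger share in every Vps15LKO liver than in any WT liver, and Rab5c rises from at most 63.7% to at least 69.7%.

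Among the Rab genes of the ER and Golgi, 7 of the 11 tested were not called, 2 were higher and 2 lower, where 33.5% of all genes were higher and 33.0% lower. Rab1a, Rab1b, Rab2a and Rab6a, which carry the bulk of ER-to-Golgi and Golgi transport, had log2 fold changes of −0.10, −0.24, −0.14 and −0.07. For Rab1b the livers had 3564, 2968 and 3181 normalized counts in WT and 2639, 2990.2 and 2574 in Vps15LKO, and for Rab2a 1996, 1669 and 1879 in WT and 1593, 1720.4 and 1721 in Vps15LKO. Both pairs of groups overlapped, and all 4 genes were called higher under total-read scaling, Rab1a and Rab1b also with quantile normalization (0.36 and 0.29). Without Vps15LKO liver 2, Rab1b was called lower (−0.31). Rab43 (chromosome 6, 87788853 to 87812164), which acts in Golgi structure and ER export, had 5183, 5696 and 5234 normalized counts in WT and 2836, 3284 and 2361 in Vps15LKO livers (log2 fold change −0.94, SE 0.13, adjusted p = 0.00029). It was −0.33 with quantile normalization and −0.21, no longer called, with total reads. Rab43 shares 75.4% of its exons with the read-through gene Gm45140 on the same strand, which had 99.9% to 102% as many reads in each library, so the counts of these genes cannot be told apart.

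Rab18, which links the ER to lipid droplets, was lower by a small amount, with 1276, 1344 and 1299 normalized counts in WT and 1024, 1014 and 1032 in Vps15LKO livers (log2 fold change −0.35, adjusted p = 0.0038). It was not called under upper-quartile scaling (−0.23) or quantile normalization (−0.09) and was called higher under total-read scaling (0.37). Rab2b and Rab6b, the minor paralogues of Rab2a and Rab6a, were higher, with log2 fold changes of 0.66 (adjusted p = 0.021) and 0.84 (adjusted p = 0.010). Neither was called with quantile normalization (0.11 and 0.28), and Rab2b also lost its call without WT liver 1 (0.56), WT liver 2 (0.58), Vps15LKO liver 1 (0.67) or Vps15LKO liver 3 (0.58). They held small shares of the counts per kb of their pairs, 1.38% and 2.66% in WT and 2.36% and 4.83% in Vps15LKO livers. Rab2b shares 59.3% of its exons with Gm43766 on the other strand, which had 71.9% to 80.2% as many reads. Rab30, Rab33b and Rab36 of the Golgi were not called (log2 fold changes 0.20, 0.06 and −0.35), though Rab36 was called lower with quantile normalization (−0.66).

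Of the 3 cilium genes, Rab34 was higher. Rab34 (chromosome 11, 78188430 to 78192193), which acts in cilium formation and lysosome positioning, had 75.6, 56.2 and 91.7 normalized counts in WT and 260.4, 190.4 and 310.5 in Vps15LKO livers (log2 fold change 1.75, SE 0.23, adjusted p = 0.00019). The Vps15LKO livers were spread over a wide range, yet all lay above the WT livers. Rab23, a brake on hedgehog signalling, and Rab28 were not called (log2 fold changes −0.31 and −0.04), nor was Rab40c, a Rab that joins a ubiquitin ligase (−0.12). Rab23 was called lower with quantile normalization (−0.63) and higher with total reads (0.42).

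The other 12 Rab genes did not pass the filter and were not compared in the main test. Rab9b had no read in any library, and Rab3c, Rab33a and Rab39b had at most 5 reads in a library. Rab40b had 4.996 to 6.74 normalized counts in WT livers and 3.82 to 9.19 in livers of Vps15LKO mice, and Rab38, a Rab of melanosomes and other lysosome-related organelles, 5.30 to 14.8 and 2.43 to 4.58. Rab15, known from neurons, had 0 reads in each WT library and 12.2, 8.91 and 9.19 normalized counts in the Vps15LKO livers, at least 2.58-fold above the level of 3 reads per WT library. Rab19 had 1.35 to 3.75 normalized counts in WT livers and 14.1 to 29.0 in livers of Vps15LKO mice, and Rab44, known from mast cells, 1.25 to 2.65 and 14.1 to 22.1. Rab37 (3.98 to 5.39 and 12.02 to 20.6), Rab42 (0 to 1.33 and 4.86 to 6.11) and Rab25 (3.98 to 5.39 and 8.40 to 23.3), the epithelial member of the Rab11 subfamily, were also higher in every Vps15LKO liver than in any WT liver. With no filter, limma called Rab15, Rab19, Rab37, Rab42 and Rab44 higher, and Rab25 missed the threshold (adjusted p = 0.052). In that fit 6853 of all 29328 genes were higher and 5289 lower, and genes this close to 0 in WT could hardly be called anything but higher.

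The proteins that handle Rabs were described through 136 genes on hand-written lists, of which 131 were tested. Of these, 49 were called higher and 38 lower, or 66.4% of the tested genes, beside 66.5% of all genes. Among the 8 genes that prenylate, escort or extract Rabs, 4 were lower, 1 higher and 3 were not called, beside 33.0% of all genes lower and 33.5% higher, and with total reads 0 were lower and 6 higher. Rabggta and Rabggtb, the subunits of the geranylgeranyl transferase that prenylates Rabs, had log2 fold changes of −0.71 (adjusted p = 0.00075) and −0.50 (adjusted p = 0.017), the latter not called without Vps15LKO liver 1 (−0.49) or 3 (−0.46). Gdi2, which extracts GDP-bound Rabs from membranes, had a log2 fold change of −0.37, but was not called under upper-quartile scaling (−0.25) and was called higher with quantile normalization (0.32). Under total-read scaling these 3 genes were above 0. Rabggta and Rabggtb were not called there (0.01 and 0.22), and Gdi2 was called higher (0.35). The escort gene Chm was not called (−0.02), while its retrogene Chml, chosen after its value was seen, had 42.4 to 51.2 normalized counts in WT livers and 129 to 153 in livers of Vps15LKO mice (log2 fold change 1.6, adjusted p = 3.8e-05).

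Of 38 GEF genes, 14 were higher and 11 lower, and of 37 GAP genes 13 were higher and 10 lower. These shares, 36.8% and 28.9% for GEFs and 35.1% and 27.0% for GAPs, lie near the 33.5% and 33.0% of all genes. Under total-read scaling 30 GEF genes were higher and 2 lower, and 30 GAP genes higher and 0 lower, when 66.8% and 11.1% of all genes were. Rab3il1, a GEF of Rab8 and Rab3, rose from a mean of 118 to 415 normalized counts (log2 fold change 1.80, adjusted p = 3.9e-06), and Dennd2a, a GEF of the DENN family, from 106 to 238 (1.17). Dennd5b, also of the DENN family, fell from 1948 to 957 normalized counts (log2 fold change −1.03, adjusted p = 0.00016) and stayed lower under total-read scaling (−0.30). Rabgef1, which activates Rab5 on early endosomes, was not called (−0.02). Among GAPs, Tbc1d9 and Tbc1d1 rose (log2 fold changes 2.62 and 1.74), and Rabgap1l and Tbc1d30 fell (−0.87 and −0.83), the latter pair losing the call with total reads (−0.15 and −0.11).

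Rab5 and Rab7 are the Rabs that share a pathway with class 3 PI3K. Of 10 Rab5 effector genes, 5 were lower and 3 higher, but the list counts Pik3r4 and Pik3c3 themselves, and the other 8 held 3 lower and 3 higher. Of 9 tested genes on the hand-written Rab7 effector list 3 were lower and 1 higher, beside 33.0% of all genes lower. Whether each gene on that list binds Rab7 was not tested. Under total-read scaling 1 Rab5 effector gene was lower and 8 were higher, and 2 Rab7 effector genes were lower and 6 higher, when 11.1% of all genes were lower and 66.8% higher. Eea1 and Rabep1, which bind Rab5 on early endosomes, had log2 fold changes of −0.40 and −0.36 and came out as higher with total reads (0.32 and 0.36). Both calls are weak: Eea1 kept its call in 12 of 19 alternatives and lost it without WT liver 1 or 2 (−0.38 and −0.29) or Vps15LKO liver 3 (−0.32). Rabep1 kept its call in 6 of 19 and lost it without WT liver 1 or 2 (−0.29 and −0.35) or Vps15LKO liver 1 or 3 (−0.38 and −0.23). The motor adaptor Hook1 had a log2 fold change of −1.01 (adjusted p = 4.5e-05), while Ankfy1 and Appl2, which bind Rab5, had 0.46 and 0.43, and Appl2 lost its call without WT liver 2 or 3 (0.41 and 0.35) or Vps15LKO liver 1 or 3 (0.42 and 0.30). Rilp, which couples Rab7 to dynein, fell from a mean of 460.5 to 203 normalized counts (log2 fold change −1.16, adjusted p = 0.00063), and Osbpl1a, which sets the position of late endosomes, from 2134 to 909 (−1.24). Both were also called lower under total-read scaling (−0.44 and −0.51). Plekhm2, the gene of the Rab7 effector list that was called higher, links lysosomes to kinesin. It rose from 325 to 735 normalized counts (log2 fold change 1.17).

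Of 9 Rab11 effector genes, 4 were higher and 1 lower, and of 17 tested secretory effector genes 10 were higher and 4 lower, beside 33.5% and 33.0% of all genes. Of the higher genes, Myo5a in the first list and Mical1, Mlph, Rims2, Sytl5 and Unc13d in the second had passed the filter through the Vps15LKO livers. The other 12 secretory effector genes held 5 higher and 4 lower. All genes with 3 WT livers at 20 normalized counts held 3623 higher and 5098 lower of 13574. Rab11fip5, an adaptor of Rab11, rose from 39.8 to 419.7 normalized counts (log2 fold change 3.34, adjusted p = 4.8e-06). Myo5a, a myosin that carries Rab vesicles along actin, rose from 16.8 to 254 (3.93). Rab11fip4 was the Rab11 effector gene called lower (−0.37), with 0.36 under total-read scaling, and it lost the call without WT liver 1 or 2 (−0.30 and −0.39) or Vps15LKO liver 1 or 3 (−0.40 and −0.29). Mical1 and Micall2, which bind Rab8 and its relatives, rose as well (log2 fold changes 3.44 and 2.43). Exph5, an effector of Rab27, fell from 387 to 129 normalized counts (log2 fold change −1.55, adjusted p = 0.0001), and Ehbp1, an effector of Rab8 and Rab10, was lower by 0.58 on the log2 scale but above 0 under total-read scaling (0.15).

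**Figure D5:**
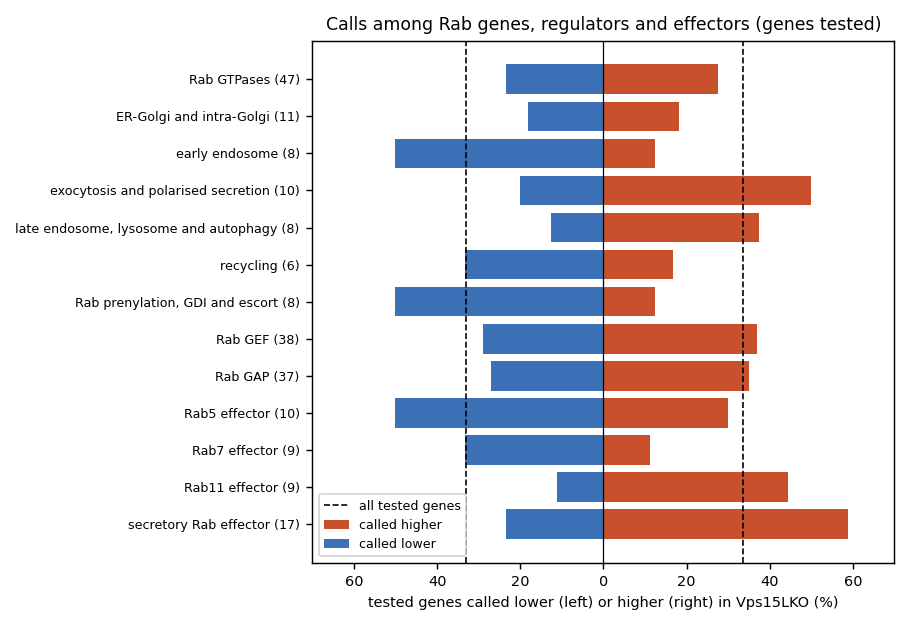
Percent of tested genes called lower (left, blue) and higher (right, red) in Vps15LKO liver for all Rab genes, for 5 role groups and for 7 lists of regulators and effectors, with the number of genes tested in brackets; dashed lines mark 33.0% lower and 33.5% higher among all genes tested. All Rab genes together stay inside both lines. Late endosome, secretion, GEF, GAP, Rab11 effector and secretory effector genes pass the right line, and early endosome, recycling, prenylation, Rab5 effector and Rab7 effector genes the left one, several of them by little. Without genes that passed the filter through the Vps15LKO livers, 1 of 6 late endosome and 2 of 7 secretion genes were higher. These shares are under the right line, but that line counts such genes. Of the 13574 genes with 3 WT livers at 20 normalized counts, 3623 were higher.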

How the data were processed

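Total RNA from the livers was enriched for poly(A), and libraries were made with a strand-marking (dUTP) protocol. According to the methods, the authors used SOAPnuke to filter reads, HISAT2 to align them (GRCm38) and featureCounts to count them per gene. The deposited values are a signal, the count of each gene divided by 1 DESeq2 size factor per library. Tool versions, strand setting and handling of overlapping genes are not given in the sources used here. All values (100% in each library) were whole multiples of 1 step within a relative tolerance of 0.001, so whole reads were recovered. Their totals per library limit only low genes.

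Symbols, coordinates and merged exon lengths came from GENCODE release M21 (GRCm38), which matched 55141 of the 56305 identifiers. Rab genes, role groups, regulator lists and tests were chosen with earlier results of these data known. The named genes are Rab5a, Rab5b, Rab5c, Rab7, the 5 largest rises and 5 largest falls among called Rab genes whose mean reached 100 normalized counts with no overlap, the 5 most abundant per kb, Pik3r4, Pik3c3, and up to 2 rises and 2 falls per regulator list (same minimum); all other Rab genes are given more briefly, and further regulators named were chosen after their values were seen. Results of some genes on the regulator lists are not reported here. Counts of genes that passed the filter through the Vps15LKO livers were made after the data were seen. Genes were tested with limma 3.58.1 (R 4.3.3; trend, Benjamini-Hochberg adjustment over all tested genes, no replicate block); adjusted p-values in the text come from it. Fold changes on log2(normalized count + 1) understate changes of low genes. Shares of paralogues were compared with two-sided exact permutation tests (scipy 1.17.1). Nothing ties replicate numbers to litters, and p-values measure the spread between these mice. No library was a copy of another (chi-square per gene of 14.0 to 36.4 between replicates). The tests were checked on simulated counts in which few genes changed, up and down alike. That check says nothing on the choice of scaling when most genes are called. Alternatives used edgeR 4.0.16, DESeq2 1.42.0 and voom on recovered reads (10205, 9951 and 10185 genes called, beside 10262 with limma), and other pseudocounts, filters, scalings, thresholds and sets of livers. With 3 livers a group, no liver was tested for standing apart.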

Additional observations from a re-analysis of the deposited data

How the results depend on the processing

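The scaling moved the results most. Under total-read scaling, which raises every fold change, 38 Rab genes were higher and 2 lower, and 104 regulators and effectors were higher and 7 lower. Among Rab genes and the regulators named by rule, values that were called under this or the deposited scaling and turned from below to above 0 were 0.14 for Rab5b, 0.45 for Rab8a, 0.42 for Rab23, 0.25 for Rab5a, 0.68 for Rab5c, 0.64 for Rab32, 0.35 for Rab21, 0.63 for Rab1a, 0.61 for Rab10, 0.48 for Rab1b, 0.61 for Rab40c, 0.45 for Rab29, 0.026 for Rab14, 0.51 for Rab22a, 0.68 for Rab28, 0.66 for Rab6a, 0.61 for Rab24, 0.59 for Rab2a, 0.37 for Rab18, 0.66 for Rab7, 0.19 for Pik3r4, 0.33 for Pik3c3, 0.012 for Rabggta, 0.22 for Rabggtb, 0.36 for Rab11fip4 and 0.15 for Ehbp1. Rab36, called under neither, was also above 0 (0.37). With quantile normalization the sign changed, among values called under it or the deposited scaling, for Rab8a (0.003), Rab5c (0.45), Rab1a (0.36), Rab10 (0.29), Rab1b (0.29), Rab7 (0.66) and Rab26 (−0.033), and the cause was not tested. It also changed for Rab2a (0.25), Rab6a (0.21), Rab32 (0.07), Rab13 (−0.31), Rab27a (−0.19), Rab33b (−0.29) and Rab20 (−0.07), called under neither. A filter of 20 normalized counts in every liver, which tests fewer genes, left 8 higher and 11 lower Rab genes (3650 and 4748 of all 13101 genes). At a fold of at least 1.5, 11 Rab genes were higher and 7 lower (4264 and 3566 of all 15430 genes), and 32 regulators and effectors were higher and 16 lower. Without each liver in turn, 11 to 13 Rab genes were higher and 10 to 12 lower, and 43 to 49 regulators and effectors were higher and 31 to 37 lower. Pseudocounts of 0.1 and 10 left both Rab counts at 13 and 11. Shares of paralogues moved by less than 1 SD with the longest transcript as length. Leaving out 1 of 3 livers cannot move a mean by 1 SD, so those values say nothing of stability.

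The replicate numbers do not pair the samples: deviations of same-numbered livers correlated at −0.01, −0.01 and 0.05. With the replicate block, 13 Rab genes were higher and 11 lower, 49 regulators and effectors were higher and 37 lower, and 5065 of all genes were higher and 4983 lower, beside 5163 and 5099 without it. Not every liver correlated best with its own number. Precision is limited by 3 livers per genotype, and for Rab genes under about 20 normalized counts by few reads. Genes that share exons with another gene cannot be resolved from these counts.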

Other observations

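The 3 genes for kinases and a phosphatase of Rab proteins that were on the lists, Lrrk1, Lrrk2 and Ppm1h, were called higher in Vps15LKO liver, as were 33.5% of all genes tested. Other such enzymes were not looked at. Lrrk1, which phosphorylates Rab7, had 366, 448 and 434 normalized counts in WT and 745, 706 and 813 in Vps15LKO livers (log2 fold change 0.86, adjusted p = 0.00017, limma). Ppm1h, the phosphatase that removes phosphate from Rab8 and Rab10, had 55.7, 78.7 and 78.2 normalized counts in WT and 355, 359.8 and 341 in Vps15LKO livers (log2 fold change 2.31, adjusted p = 6.4e-06, limma). Lrrk2, which phosphorylates Rab8, Rab10 and Rab12, lay close to the threshold (log2 fold change 0.49, adjusted p = 0.048, limma) and kept its call in 11 of 19 alternatives. It was −0.05 with quantile normalization and lost the call without WT liver 1 (0.31) or any Vps15LKO liver (0.49, 0.49 and 0.50).

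The exchange factor of Rab7 is a complex of Mon1 and Ccz1 proteins. Mon1a had 399, 372 and 418 normalized counts in WT and 181, 218 and 219 in Vps15LKO livers (log2 fold change −0.95, adjusted p = 0.00013, limma). It was not called under total-read scaling (−0.22). Mon1b was not called (log2 fold change −0.13), and Ccz1 (−0.25, adjusted p = 0.032, limma) stayed under the fold threshold. Under total-read scaling Mon1b (0.59) and Ccz1 (0.48) were called higher.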
